A study of Mus musculus with 2 samples.

Results

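Aminoacyl tRNA synthetases join each amino acid to its tRNA and so supply every ribosome. One set of nuclear genes encodes the cytosolic enzymes, and a second set, most with symbols ending in 2, encodes enzymes that are imported into mitochondria to charge the tRNAs made there. In muscle, where mitochondrial protein synthesis feeds the respiratory chain, defects of either set are known from human disease. The genes described here were the protein-coding genes whose symbol is a single letter followed by ars, with or without a final 2, together with Eprs, Farsa and Farsb. The rule found 37 members among 22028 protein-coding genes, of which 20 were classed as cytosolic and 17 as mitochondrial. Glycyl and lysyl tRNA synthetase (Gars and Kars) counted as cytosolic by symbol, although each gene is known to serve both compartments.

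Gastrocnemius, a calf muscle rich in fast fibres, was taken from 2 male B6CASTF1/J mice, an F1 cross, aged 36 days. Total RNA libraries were ribosome-reduced and stranded, started from 300 ng and carried ERCC spike-ins, per the labels. The animals were labelled as biological replicates 1 and 2 and carried separate mouse numbers but the same donor entry, so the spread between them may be partly technical. There was 1 group of 2 animals, no contrast between groups, and so no p-values. Reads of both parental alleles are summed in the tables.

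The libraries held 36952277 expected counts (replicate 1) and 38754338 (replicate 2). Skeletal muscle fibre markers summed to 87611 and 92517 TPM in replicates 1 and 2, with all 8 detected. Markers of other cells were not even between the animals. Schwann cell markers summed to 452 TPM in replicate 1 and 103 TPM in replicate 2, fibroblast markers to 1737 and 901, tendon cell markers to 146 and 98.2, and macrophage markers to 36.5 and 21.8. Adipocyte markers summed to 106 and 131 TPM, endothelial markers to 45.0 and 45.2, and red blood cell markers to 263 and 223. The near-equal endothelial sums join moves both ways, with 3 of the 5 genes higher and 2 lower in replicate 1. None of these markers was at 0 in either animal. In bulk tissue, fewer cells of a type and less RNA per cell cannot be told apart.

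Levels are the TPM of the deposited gene table, relative transcript abundances scaled for length, so that genes can be compared. Of the 37 members, 35 had at least 1 TPM in both animals, against 45.6% of all protein-coding genes. The cytosolic enzymes ran higher than the mitochondrial ones. The median cytosolic levels were 17.8 TPM (replicate 1) and 17.9 TPM (replicate 2), and the median mitochondrial levels were 4.91 and 5.58 TPM. Summed over members, the cytosolic set gave 441 ± 13.1 TPM and the mitochondrial set 105 ± 9.26 TPM (SD, n = 2), a ratio of 4.37 in replicate 1 and 4.03 in replicate 2. The median member of the cytosolic set had a higher mean TPM than 88.8% of protein-coding genes, and the median mitochondrial member a higher one than 73.3%.

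**Figure D1:**
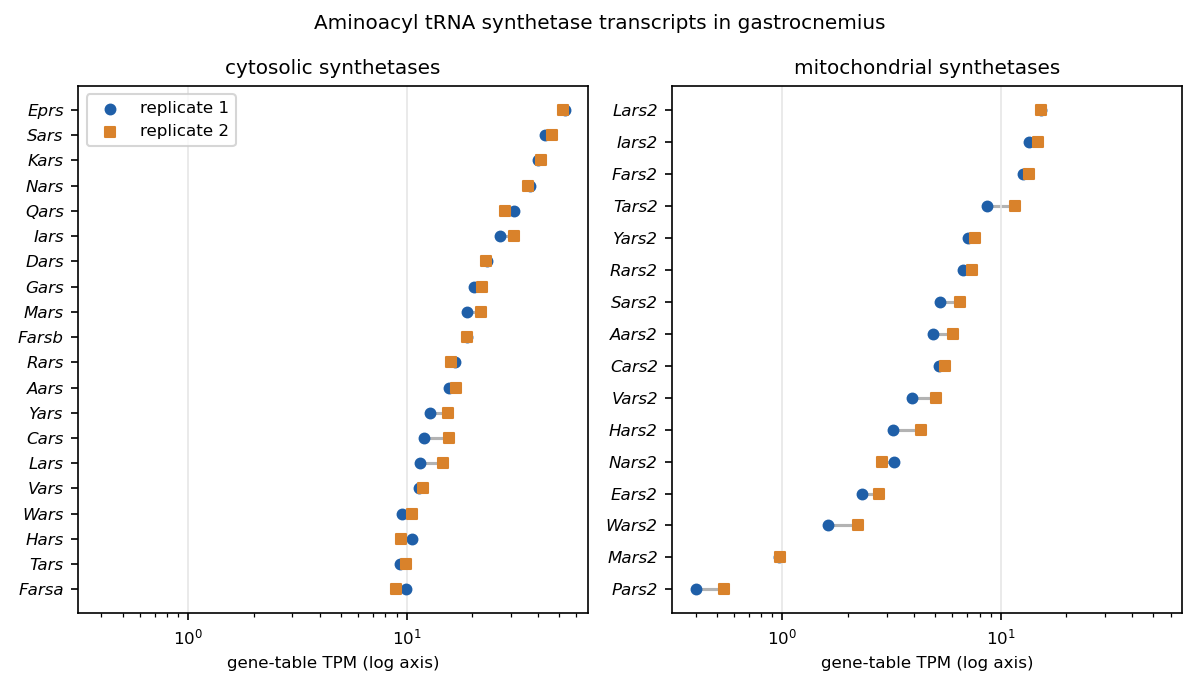
TPM of each synthetase gene in the deposited gene table (log axis), cytosolic enzymes left and mitochondrial enzymes right, with a circle for replicate 1, a square for replicate 2 and a line joining them; 36 of the 37 members are drawn. All cytosolic genes lay between 8.94 and 53.03 TPM, while the mitochondrial genes ran from 0.40 to 15.23 TPM.

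Among the cytosolic enzymes, Eprs was the highest gene. It encodes a fused protein that charges both glutamate and proline tRNAs and lies at chr1:185363044-185428360 (mm10, plus strand). Eprs had 53.0 TPM in replicate 1 and 52.1 TPM in replicate 2. Seryl tRNA synthetase (Sars) followed with 43.1 and 46.2 TPM, and Kars with 39.9 and 41.1 TPM. The ranges of the 2 animals did not overlap at either step. Asparaginyl tRNA synthetase (Nars) had 36.8 and 35.9 TPM, and glutaminyl tRNA synthetase (Qars) 31.0 and 28.2 TPM in replicates 1 and 2. The Qars level counts all forms of the gene. Forms not typed as protein-coding held 69.1% and 70.4% of it in replicates 1 and 2.

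A middle group of cytosolic enzymes lay between 15 and 31 TPM. The isoleucine enzyme Iars had 26.8 TPM in replicate 1 and 30.9 TPM in replicate 2, so that its range overlapped that of Qars. The aspartate enzyme Dars had 23.3 and 23.1 TPM, Gars 20.4 and 22.1 TPM, and the methionine enzyme Mars 18.9 and 21.9 TPM. The arginine enzyme Rars had 16.7 and 15.9 TPM and the alanine enzyme Aars 15.6 and 16.8 TPM. Of the 19 neighbouring steps in the cytosolic order, 9 joined genes whose ranges over the animals did not overlap.

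Phenylalanyl tRNA synthetase is the only cytosolic enzyme in this set built of 2 different subunits from separate genes. The beta subunit gene Farsb had 18.9 TPM in replicate 1 and 19.0 in replicate 2, and the alpha subunit gene Farsa had 9.90 and 8.94 TPM. Farsb was thus 1.91-fold and 2.12-fold above Farsa in replicates 1 and 2. The tyrosine enzyme Yars had 12.8 and 15.4 TPM, the cysteine enzyme Cars 12.01 and 15.64 TPM, and the leucine enzyme Lars 11.5 and 14.7 TPM. Those 3 genes were lower in replicate 1 and their ranges overlapped one another. Beside Farsa, which had the lowest mean of the cytosolic genes, the lowest levels were those of the valine enzyme Vars (11.4 and 11.9 TPM), the tryptophan enzyme Wars (9.51 and 10.6 TPM), the histidine enzyme Hars (10.6 and 9.43 TPM) and the threonine enzyme Tars (9.37 and 9.94 TPM).

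Of the cytosolic enzymes, 8 are known to sit in the multisynthetase complex, which gathers synthetases around 3 scaffold proteins. These 8 (Eprs, Iars, Lars, Qars, Mars, Kars, Rars and Dars) had a median of 25.04 TPM in replicate 1 and 25.68 TPM in replicate 2, against 12.4 and 15.5 TPM for the other 12. The sets overlapped, since the complex enzymes ran from 11.5 TPM and those outside it reached 43.1 TPM in replicate 1. This grouping was made after the levels had been seen. Of the scaffold genes, Aimp2 was the highest, with 63.7 and 68.7 TPM, above every synthetase, and Eef1e1 the lowest, with 4.28 and 4.79 TPM.

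Tarsl2, a paralog of Tars outside the symbol rule that encodes a second cytosolic threonine enzyme, had 23.4 TPM in replicate 1 and 24.4 TPM in replicate 2. It was 2.50-fold and 2.45-fold above Tars in replicates 1 and 2. The second transcript table, made by another quantification, gave 1.42-fold and 1.39-fold. Tarsl2 was thus higher than Tars in both animals and both tables, although reads shared by the paralogs could be divided differently by each method.

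The mitochondrial enzymes spread more widely. In the gene table the leucine enzyme Lars2 (chr9:123366927-123462666, plus strand) was the highest, with 15.2 TPM in each animal. The isoleucine enzyme Iars2 had 13.5 TPM in replicate 1 and 14.8 in replicate 2, and the phenylalanine enzyme Fars2, a single-chain enzyme, 12.6 and 13.5 TPM. Together with these, the threonine enzyme Tars2 formed the top of the set, with 8.68 and 11.6 TPM. A middle group followed: Yars2 with 7.09 and 7.64 TPM, Rars2 with 6.70 and 7.39 TPM, Sars2 with 5.28 and 6.5 TPM, Aars2 with 4.91 and 6.02 TPM and Cars2 with 5.23 and 5.58 TPM.

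The lower mitochondrial members included Vars2 (3.91 and 5.07 TPM in replicates 1 and 2), Hars2 (3.22 and 4.30 TPM), Nars2 (3.26 and 2.86 TPM), Ears2 (2.31 and 2.76 TPM) and Wars2 (1.62 and 2.23 TPM). These levels count all forms. In replicates 1 and 2, forms not typed as protein-coding held 55.9% and 67.9% of Vars2, 59.2% and 51.9% of Nars2, and 35.2% and 52.9% of Wars2. The methionine enzyme Mars2 and the proline enzyme Pars2 were the only members under 1 TPM. Mars2 had 0.96 and 0.97 TPM from 340 and 344 expected counts. Pars2 had 0.40 and 0.54 TPM from 31 and 38 expected counts, and it was the only member under a mean of 50 expected counts.

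The enzymes were next paired by amino acid. There were 17 pairs, with Eprs set against both Ears2 and Pars2, and the lower of Farsa and Farsb set against Fars2; Gars, Kars and Qars have no partner in the set. In mitochondria, glutamine tRNA is charged with glutamate by Ears2 and converted by an amidotransferase. The median log2 ratio of cytosolic over mitochondrial TPM, with 0.1 TPM added to each, was 1.645 in replicate 1 and 1.462 in replicate 2, a mean of 1.55 ± 0.13 (SD, n = 2), or 2.94-fold. The cytosolic enzyme was higher in both animals in 14 of the 17 pairs, and at least 2-fold higher in 12. In all 14 the deposited credibility intervals of the partners, of a level that the sources used here do not give, were apart in both animals.

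The widest gap was that of proline. Eprs was 106-fold and 81.5-fold above Pars2 on the log2(TPM + 0.1) scale in replicates 1 and 2, and 22.05-fold and 18.25-fold above Ears2. Mars stood 17.96-fold and 20.59-fold above Mars2, and Nars 10.98-fold and 12.17-fold above Nars2. Counting transcripts typed as protein-coding alone, Nars was 16.8-fold and 17.0-fold above Nars2 in the first transcript table. The narrowest gaps with the cytosolic enzyme ahead were those of isoleucine (1.97-fold and 2.07-fold) and tyrosine (1.79-fold and 2.00-fold).

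For 3 amino acids the cytosolic enzyme was not ahead in both animals. Farsa had 9.90 TPM in replicate 1 and 8.94 TPM in replicate 2, against 12.6 and 13.5 TPM for Fars2, and the credibility intervals were apart in both animals. Lars had 11.5 and 14.7 TPM, against 15.2 and 15.2 TPM for Lars2, with overlapping intervals. Tars had 9.37 and 9.94 TPM, against 8.68 and 11.6 TPM for Tars2, so that the order differed between the animals. Phenylalanine was thus the only pair in which the mitochondrial enzyme was higher by more than the intervals in both animals; Farsb, the other cytosolic subunit, was above Fars2 in both.

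**Figure D2:**
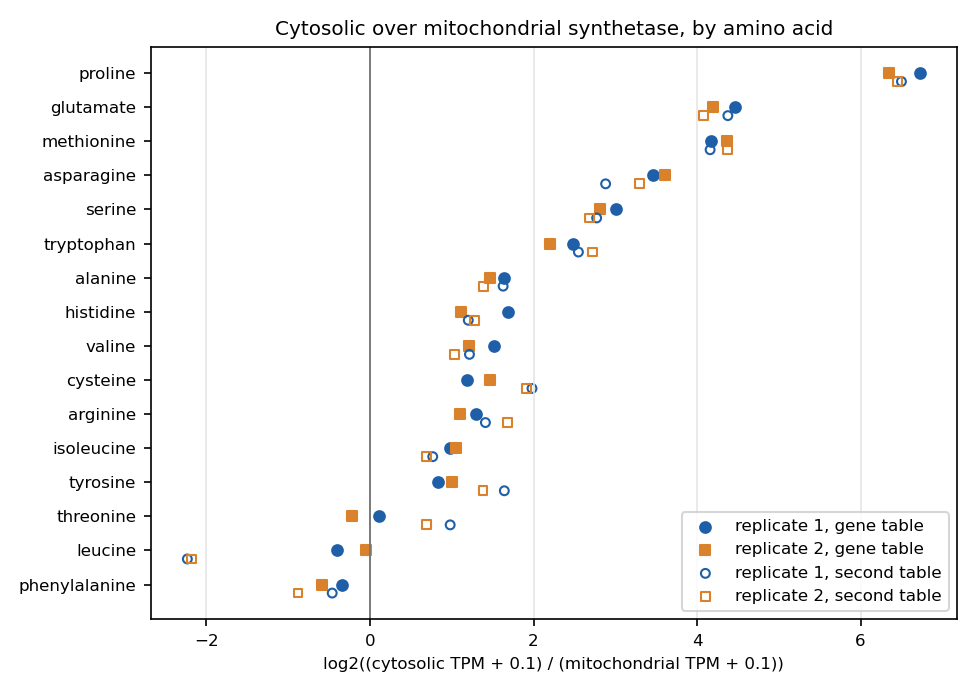
Log2 ratio of cytosolic over mitochondrial enzyme for each amino acid, with filled symbols from the gene table and open symbols from the second transcript table; circles are replicate 1 and squares replicate 2, and 16 of the 17 pairs are drawn. Leucine moved furthest between the tables, while the pairs from proline down to tyrosine lay right of 0 in both animals in both tables.

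The leucine and threonine pairs depended on which transcripts were counted. In the second transcript table Lars2 was 4.73-fold and 4.56-fold above Lars in replicates 1 and 2, against 1.32-fold and 1.04-fold in the gene table. Counting the transcripts typed as protein-coding alone, Lars had 9.38 and 9.11 TPM and Lars2 11.96 and 9.90 TPM in the first transcript table, and Lars had 14.2 and 13.6 TPM and Lars2 16.2 and 16.0 TPM in the second. Lars2 therefore stayed above Lars, by a narrow margin, on coding transcripts in both tables. On that measure Lars2 was not the highest mitochondrial member. Iars2 was above it, at 13.3 and 14.6 TPM in the first table and 18.6 and 18.8 TPM in the second. Tars likewise had 7.10 and 6.60 TPM of coding transcripts and Tars2 7.88 and 11.02 TPM in the first table, and Tars 8.60 and 7.65 TPM and Tars2 10.7 and 12.6 TPM in the second. On coding transcripts Tars2 was above Tars in both animals and both tables. Over all forms of the second table the order was the other way. Tars had 23.4 and 23.4 TPM there and Tars2 11.8 and 14.5 TPM. Counted on coding transcripts of the first table, Farsa and Fars2 changed order between the animals. Farsa had 8.19 and 7.62 TPM there and Fars2 7.74 and 10.6 TPM.

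Most members were led by a protein-coding transcript, meaning that their most abundant form in the first transcript table was typed so. This held for 34 of 37 members, 19 of 20 cytosolic and 15 of 17 mitochondrial. The exceptions included Qars and Nars2. Forms not typed as protein-coding, such as retained introns and targets of nonsense-mediated decay, made up over 20% of TPM in both animals for 5 of 20 cytosolic and 8 of 17 mitochondrial members, against 24.3% of protein-coding genes that averaged 1 TPM or more. In the second table this held for 7 cytosolic and 8 mitochondrial members, against 29.1% of such genes. Total RNA libraries also hold unspliced and partly spliced RNA, and the part of this in those shares was not tested.

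Kars makes its cytosolic and mitochondrial enzymes from one gene. In human cells the mitochondrial form is known to come from transcripts that keep an extra exon. In the M21 annotation, 3 mouse forms (Kars-202, Kars-203 and Kars-205) share an exon of 180 bases at chr8:112008207-112008386 (mm10, minus strand) that holds their start codon, while Kars-201 starts in another exon. The coding part of that exon, 146 bases at chr8:112008207-112008352, is shown because it is the stretch that sets the forms apart, with the start codon in capitals.
Kars coding exon: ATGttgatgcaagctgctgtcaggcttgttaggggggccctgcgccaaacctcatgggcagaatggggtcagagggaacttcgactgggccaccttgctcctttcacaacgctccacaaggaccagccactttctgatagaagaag

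In the first transcript table the forms with this exon carried 16.2 TPM in replicate 1 and 17.0 in replicate 2, and Kars-201 carried 23.6 TPM in each. The forms with the exon thus held 40.5% and 41.3% of Kars TPM, a close match between the animals. The second transcript table put 99.5% and 99.9% of Kars TPM in the forms with the exon and listed Kars-201 at 0 in replicate 1 and next to 0 in replicate 2. The animals differed far less than the tables, so the share of the mitochondrial form was not settled by these files. Gars, whose compartments are known in human cells to be set by alternative start codons, was carried almost wholly by Gars-201, with 97.4% and 98.5% of its TPM.

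**Figure D3:**
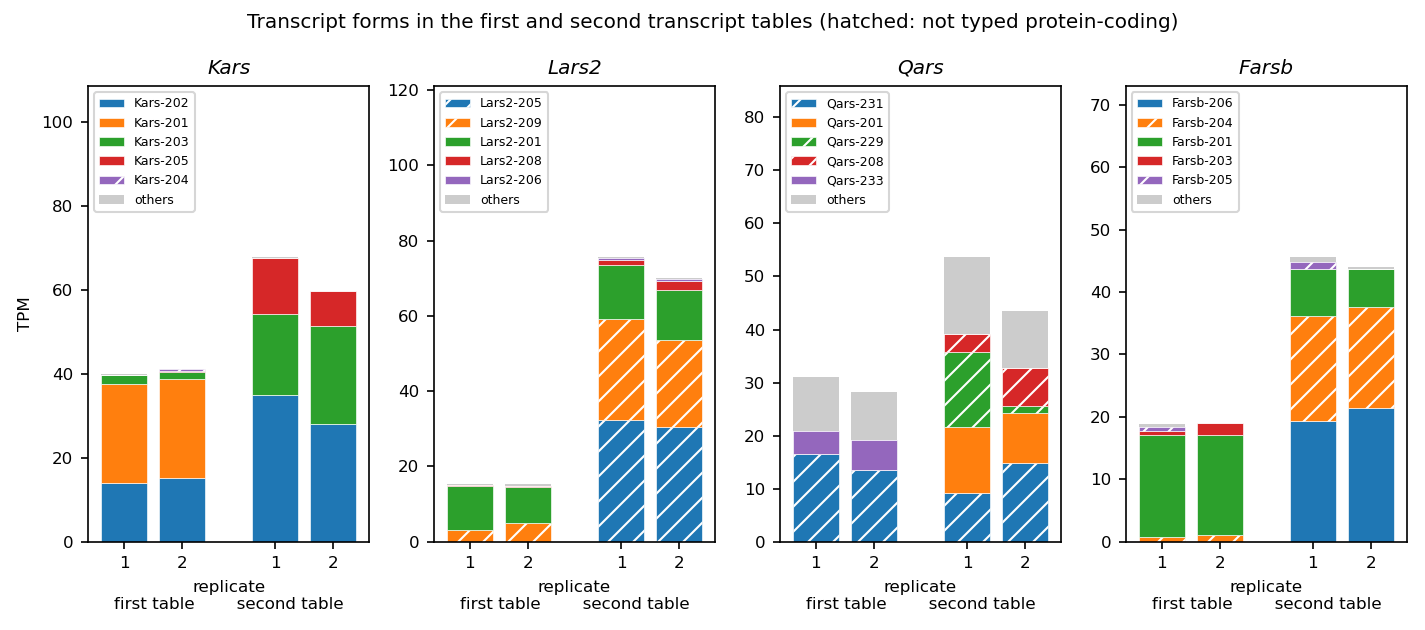
TPM of the transcripts of Kars, Lars2, Qars and Farsb in replicates 1 and 2, as stacked bars, in the first and the second transcript table; hatched bars are forms not typed as protein-coding. The second table gave Lars2 totals of 75.7 and 70.2 TPM, most of it in hatched forms.

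Lars2, Farsb, Cars and Tars differed most between the tables. Across members the median ratio of second table to gene table TPM was 1.46, and it was 1.47 over protein-coding genes. Lars2 had a ratio of 4.79, with 75.7 TPM in replicate 1 and 70.2 TPM in replicate 2 of the second table. Much of that came from Lars2-205, a retained intron form of 889 bases, at 32.2 and 30.4 TPM, and Lars2-209, a form typed for nonsense-mediated decay, at 26.8 and 23.3 TPM. The first table listed Lars2-205 at 0 in both animals. The full-length coding form Lars2-201 was closer between the tables, with 14.3 and 13.2 TPM in the second and 11.7 and 9.64 TPM in the first.

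Farsb showed a similar split. Farsb-206, a short coding form of 619 bases, had 19.4 TPM in replicate 1 and 21.5 TPM in replicate 2 of the second table and was listed at 0 in the first. Farsb-201, which carried 87.0% and 84.1% of Farsb in the first table, had 7.57 and 6.20 TPM in the second. Farsb-204, a form typed for nonsense-mediated decay, had 16.8 and 16.0 TPM in the second table and 0.69 and 1.14 TPM in the first. Over all forms of the second table, the excess of Farsb over Farsa read 3.01-fold and 3.55-fold. On coding transcripts of that table, Farsb had 27.1 and 27.8 TPM and Farsa 12.5 and 11.1 TPM in replicates 1 and 2. For Qars, the nonsense-mediated decay form Qars-231 led with 16.6 and 13.5 TPM in the first table, where the long coding form Qars-201 was listed at 0. The second table gave Qars-231 9.15 and 14.9 TPM and Qars-201 12.5 and 9.45 TPM. Forms outside the protein-coding type made up 69.1% and 70.4% of Qars TPM in the first table and 75.1% and 73.5% in the second, so this share was similar under both.

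Between the animals, no member with a mean of at least 50 expected counts (36 of 37) was 1.5-fold apart, against 10.1% of 10952 such protein-coding genes, with 7.25% above in replicate 1 and 2.83% above in replicate 2. The largest ratio, 1.35-fold on the log2(TPM + 0.1) scale, was that of Wars2. One member, Tars2, had credibility intervals that did not overlap, from 8.97 to 11.5 TPM in replicate 1 and from 11.7 to 14.6 TPM in replicate 2, against 9.68% of protein-coding genes with such a gap upward in replicate 2 and 9.33% with one upward in replicate 1. The members' counts, 0 and 1 of 36, lay below these shares. The genes behind the shares were not matched to the members for expected counts, so nothing is read from this about how steady the members are. The intervals do not always hold the TPM of the same table: Tars2, at 8.68 and 11.61 TPM, and Qars lay below their own intervals in both animals, and Lars and Vars in replicate 1.

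Small ratios between the animals nevertheless leaned one way for the mitochondrial set. In the gene table, 15 of 17 mitochondrial members were lower in replicate 1, Nars2 was higher and Lars2 was equal, against 52% of protein-coding genes lower in replicate 1. The median log2 ratio of replicate 1 over replicate 2 was -0.08 for the cytosolic and -0.25 for the mitochondrial enzymes, beside -0.01 for 10361 protein-coding genes averaging 1 TPM or more. In the second table, 9 of 17 mitochondrial members were lower in replicate 1, against 34% of protein-coding genes, and the median over those genes was 0.12 log2 units above that of the gene table. Relative to that table's own median, the cytosolic set lay at -0.05 in the second table and -0.06 in the gene table, and the mitochondrial set at -0.13 and -0.23. The mitochondrial lean was thus below the median gene in both tables and smaller in the second.

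TPM divides counts by a length that depends on the mixture of forms, and that length differed between the animals for some members. Wars2 had 182 expected counts in replicate 1 and 190 in replicate 2, or 4.93 and 4.90 CPM (counts scaled to the library total), while its effective length was 3564 and 2684 bases. Cars had 19.6 and 19.5 CPM and Lars 33.4 and 33.8, although their TPM were lower in replicate 1. For these 3 genes the ratio in TPM was not present in the counts. Tars2 was lower in replicate 1 on both scales, with 16.0 CPM in replicate 1 and 19.6 in replicate 2, a log2 ratio of -0.29 in CPM and -0.42 in TPM. In CPM, 12 of 17 mitochondrial members were lower in replicate 1, against 39.8% of protein-coding genes, and the median log2 ratio was -0.14. After TPM were rescaled over nuclear protein-coding genes, 14 of 17 were lower in replicate 1, against 40.5% of protein-coding genes. The marker sums of Schwann cells, fibroblasts, tendon cells and macrophages were higher in replicate 1. Adipocyte markers went the way of the mitochondrial enzymes, with 5 of 6 lower in replicate 1 and a median log2 ratio of -0.53. Of the 5 adipocyte markers with a mean of at least 50 expected counts, 3 were at least 1.5-fold higher in replicate 2, against 2.83% of protein-coding genes. The part of these cell types in the mitochondrial ratios was not tested.

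**Figure D4:**
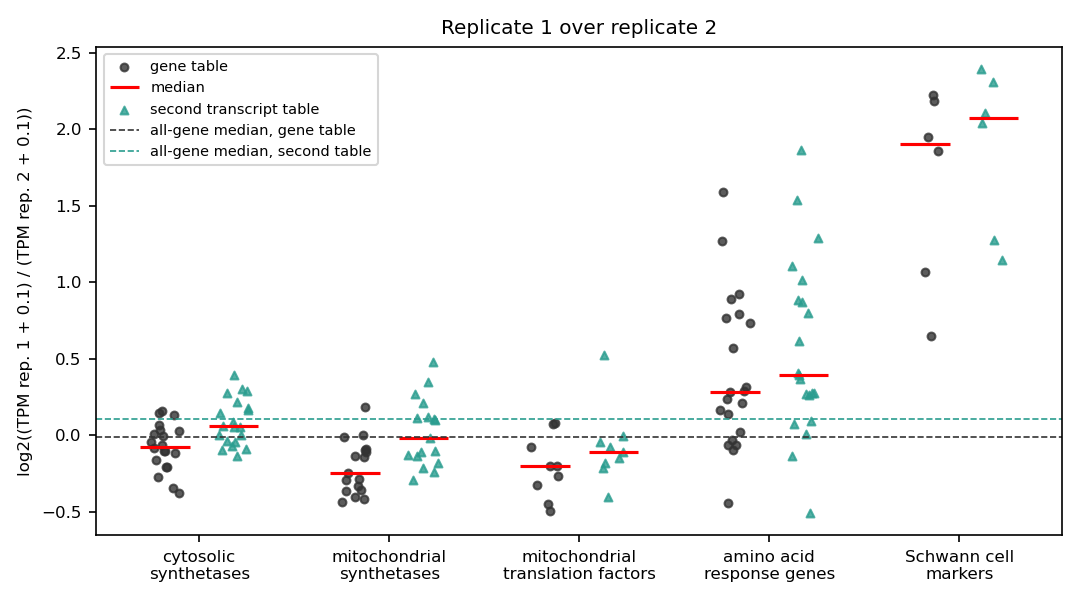
Log2 ratio of replicate 1 over replicate 2 for each gene of 5 groups, with black circles from the gene table and green triangles from the second transcript table; red bars are medians and dashed lines the medians over protein-coding genes. Mitochondrial synthetases and translation factors centre below the dashed line of their table, amino acid response genes and Schwann cell markers above it.

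Genes that work beside the synthetases were compared in the same way. Of 9 mitochondrial translation factors 7 were lower in replicate 1, against 52% of protein-coding genes, and their median log2 ratio was -0.20, beside -0.01 over all such genes. In the second table, 8 of 9 were lower, against 34%, with a median of -0.11 beside 0.11. The elongation factor Tufm, which delivers charged tRNAs to the mitochondrial ribosome, was the highest, with 43.0 TPM in replicate 1 and 58.7 in replicate 2, and the release factor gene Mtrf1l the lowest, with 1.73 and 1.64 TPM. Among the 4 mitochondrial charging partners, Gatc, a subunit of the amidotransferase, was the highest with 7.12 and 9.0 TPM, and Mtfmt, which formylates the initiator methionyl tRNA, the lowest with 1.82 and 1.74 TPM. None of these 13 genes was 1.5-fold apart, against 10.1% of protein-coding genes, and 13 genes are too few to tell this count from that share.

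Each of the cytosolic elongation factors listed stood above every synthetase member in both animals, by margins that differed widely. The 6 genes summed to 1816 TPM in replicate 1 and 1790 TPM in replicate 2. Eef1a2, the muscle and nerve form of the factor that carries charged tRNAs to the ribosome, was the highest, with 809 and 867 TPM, and Eef1d the lowest, with 90.4 and 80.5 TPM. Among selenocysteine and proofreading partners, Pstk, a kinase of seryl tRNA for selenocysteine, was the highest with 12.4 and 15.5 TPM, and Dtd2 the lowest with 1.38 and 1.44 TPM. Of the synthetase-like genes outside the symbol rule, Aarsd1, an editing protein for misacylated alanine tRNA, was the lowest, with 6.02 and 4.26 TPM. In the second table Aarsd1 had 1.41 and 1.56 TPM, so both its level and the order of the animals differed between the tables.

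Uncharged tRNA is known to activate the eIF2 kinase GCN2 (Eif2ak4), which raises translation of the factor ATF4 and with it transcription of amino acid response genes, some synthetases among them. Of 4 eIF2 pathway genes measured, Eif2ak1 was the highest, with 8.43 TPM in replicate 1 and 8.86 in replicate 2, and Eif2ak2 the lowest, with 1.34 and 1.47 TPM. Of 21 amino acid response genes 16 were higher and 5 lower in replicate 1, against 52% of protein-coding genes averaging 1 TPM or more that were lower. Their median log2 ratio was 0.28, beside -0.01 over those genes. The list was not filtered by level as those genes were, and 14 of the 21 had at least 1 TPM in both animals. In the second table, 2 of 21 were lower, against 34%, with a median of 0.40 beside 0.11. Of the 17 with a mean of at least 50 expected counts, 5 were at least 1.5-fold higher in replicate 1 and none was so in replicate 2, against 7.25% and 2.83% of protein-coding genes.

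These 5 genes were mostly low. Asparagine synthetase (Asns) had 2.19 TPM in replicate 1 and 0.66 in replicate 2, and the stress protein gene Nupr1 11.7 and 4.81 TPM. The serine synthesis enzymes Phgdh and Psat1 had 2.29 and 1.19 TPM and 2.08 and 1.16 TPM, and the amino acid transporter Slc7a5 had 1.74 and 0.87 TPM. Cebpb, which encodes a C/EBP factor, had the highest mean of the list in the gene table, with 51.4 and 46.8 TPM, followed by Atf4 with 46.8 and 47.8 TPM, the higher of both in replicate 2. In the second table Atf4 was above Cebpb in both animals, with 75.1 and 70.5 TPM against 73.0 and 60.2 TPM. The lowest gene, Fgf21, had 0.07 TPM from 2 counts in replicate 1 and was listed at 0 in replicate 2. The part of the Schwann cell, fibroblast, tendon cell and macrophage markers, higher in replicate 1, was not tested here either.

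ATF4 with a C/EBP partner is known to bind a composite element with the core TGATGNAA. RefSeq promoter windows (GRCm38.p6) around the annotated start were matched for 27 members, 13 cytosolic and 14 mitochondrial, and searched on both strands (TTNCATCA on the other). The core was present in 5 of 13 cytosolic members (Aars, Gars, Iars, Tars and Yars) and in 0 of 14 mitochondrial members, against 3.97% of 32851 windows and 4.51% of 27025 genes. A match of letters is a description, and no factor binding was measured. One match per gene is shown with 11 bases on either side, in the direction of the gene and with the core in capitals, so that the copies can be compared.
Aars: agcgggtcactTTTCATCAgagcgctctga
Gars: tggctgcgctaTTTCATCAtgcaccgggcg
Iars: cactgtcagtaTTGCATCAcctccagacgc
Tars: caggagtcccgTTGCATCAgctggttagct
Yars: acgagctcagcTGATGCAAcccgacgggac

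The Aars run lay at chr8:111033840-111033869 (plus strand), with its core starting at position 10 counted with the RefSeq start as position 1. The Gars run lay at chr6:55037960-55037989 (plus strand, core at -30), the Iars run at chr13:49682126-49682155 (plus strand, core at 8), the Tars run at chr15:11399655-11399684 (minus strand, core at -15) and the Yars run at chr4:129189895-129189924 (plus strand, core at 4). The Yars core read on the sense strand and the other 4 shown on the antisense strand. In the M21 annotation the Gars and Tars cores lay outside the exons of their gene, the Aars and Iars cores shown lay in untranslated exon sequence of at least one form, and 6 of the 8 bases of the Yars core lay in coding sequence. The Gars and Tars promoters, whose cores lie just before the start, are shown as 140 bases each at chr6:55037881-55038020 and chr15:11399639-11399778.
Gars promoter: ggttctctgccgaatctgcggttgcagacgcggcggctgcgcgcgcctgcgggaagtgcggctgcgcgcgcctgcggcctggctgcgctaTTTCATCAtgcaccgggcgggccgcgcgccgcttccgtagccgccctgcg
Tars promoter: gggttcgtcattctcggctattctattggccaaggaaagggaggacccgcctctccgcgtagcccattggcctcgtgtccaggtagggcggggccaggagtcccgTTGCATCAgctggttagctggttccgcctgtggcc

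The direction of the 5 synthetases with the core depended on the scale. In the gene table each was lower in replicate 1, with log2 ratios of -0.11 for Aars, -0.11 for Gars, -0.21 for Iars, -0.08 for Tars and -0.27 for Yars, against 52% of protein-coding genes and 13 of 20 cytosolic members lower. In CPM the ratios were -0.0019 for Aars, -0.062 for Gars, 0.006 for Iars, 0.13 for Tars and -0.092 for Yars. In the second table Gars was lower in replicate 1, at -0.04, and the other 4 were at 0.00074 for Aars, 0.062 for Iars, 0.00033 for Tars and 0.15 for Yars, against 34% of protein-coding genes lower. None was 1.5-fold apart in either table. Asns, Nupr1, Phgdh, Psat1 and Slc7a5 were so in both, but they were named because they passed that fold in the gene table. They were 5 of 17 amino acid response genes with a mean of at least 50 expected counts. They therefore do not serve as a contrast to the 5 synthetases.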

How the data were processed

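The deposited gene table and first transcript table have the columns of RSEM and the second transcript table those of kallisto, per the file headers. No quantifier or version is named in the sources used here. Per the labels the build is mm10, and the reference used here for names, forms and coordinates is GENCODE M21. The authors deposited expected counts (estimated reads, not whole), TPM, its credibility interval and posterior mean, and the percent of each gene carried by each transcript; deposited FPKM values were not used.

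Members were found by symbol and type in the second transcript table. The members, the gene lists and the rule for named genes (the members, and of each list the highest, the lowest and each gene 1.5-fold apart with a mean of at least 50 expected counts) were chosen with earlier results of these data known. One member and one further promoter match enter the counts but are not reported here by themselves. Marker lists of cell types are given as sums. Of 104 listed symbols 101 were measured apart from the members; Mars is a member, and Gcn1 and Mars1 were not used here. Log2 ratios used a pseudocount of 0.1 TPM, which understates ratios of low genes. Medians and counts were computed with Python 3.11.15, numpy 2.4.6 and pandas 2.3.3. Members were matched to RefSeq promoters by gene ID.

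A count of 0 allows up to 3 counts, or 0.0812 and 0.0774 CPM in replicates 1 and 2. Intervals and floors cover counting and read assignment only. A chi-square of the rounded counts of 13746 genes gave 33.3 per degree of freedom, so the libraries differed by more than sampling noise. Whether counting used strand is not stated, so reads of overlapping genes such as Hars and Hars2 may be divided uncertainly.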

Additional observations from a re-analysis of the deposited data

How the results depend on the processing

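With 2 animals of 1 group there was no test, so a value was compared with the SD of the animals, or with 0.05 log2 units where there was none. The median log2 ratio of cytosolic over mitochondrial enzymes (1.55) was 1.42 with posterior mean TPM, 1.40 with a pseudocount of 1 and 1.75 for unpaired medians. It was 1.74 on coding transcripts of the first table and 1.82 on those of the second, both chosen after seeing the data, and from 1.462 to 1.645 with 1 animal left out. Pairs with the cytosolic enzyme ahead numbered 12 to 15 under every alternative run. The cytosolic ratio between animals (-0.08) turned to 0.059 in the second table and to 0.025 in CPM (added after seeing the data), and was -0.0072 after rescaling over nuclear protein-coding genes. The mitochondrial ratio (-0.25) was -0.018 in the second table, -0.13 there relative to its median gene, -0.18 after rescaling, -0.14 with a pseudocount of 1, -0.13 for members with a mean of at least 5 TPM and -0.14 in CPM. The cytosolic sum (441 TPM) was 663 in the second table, 1068.5 after rescaling, 379 without Gars and Kars, and 431 to 450 with 1 animal left out; the mitochondrial sum (105 TPM) was 204, 255 and 98.6 to 112. No member was 1.5-fold apart under any alternative run. No cause was tested. No paired analysis was possible because there was 1 group. Pars2, at 31 and 38 counts, and Mars2 limit the proline and methionine ratios.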

Other observations

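Some synthetase genes lie near one another in the genome, and whether other genes lie between them was not examined. Hars and Hars2 lie on chromosome 18 on opposite strands, with annotated starts 197 bases apart and overlapping first parts, and had 10.6 and 9.43 TPM and 3.22 and 4.30 TPM in replicates 1 and 2. Eprs and Iars2 lie on chromosome 1 on opposite strands, with starts 33648 bases apart, and had 53.0 and 52.1 TPM (Eprs) and 13.5 and 14.8 TPM (Iars2). The genes of each pair were thus not at like levels in either animal.

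Across the 17 amino acid pairs, the levels of the cytosolic and the mitochondrial enzyme had a Spearman rho of -0.32 in replicate 1 and -0.37 in replicate 2. Without the Eprs pairs, which enter with 1 cytosolic gene, rho was -0.08 and -0.15. The points of one animal share its library, genes are not independent replicates, and a relation this weak is given as a description.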
